A study of Homo sapiens with 9 samples.

Results

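The genes described are 10 receptors for TGF-beta, activin and bone morphogenetic proteins (BMPs) in HEK293T cells: TGFBR1, ACVR1B, ACVR1, BMPR1A and BMPR1B (type I receptors), TGFBR2, ACVR2A, ACVR2B and BMPR2 (type II receptors) and the co-receptor TGFBR3. They were chosen by symbol, as 10 of the 58735 genes counted, because TGFBR1 was among the deepest falls with the SUDS3 siRNA, so the set was selected on measured values of the SUDS3 libraries. HEK293T is an established line from human embryonic kidney with the SV40 T antigen, and here cells in serum-containing medium received 10 nM of a negative control siRNA, of the PHF12 siRNA or of the SUDS3 siRNA with a lipid reagent for 36 h. Each siRNA gave 3 stranded poly-A RNA libraries, and each target had 1 siRNA. PHF12 and SUDS3 are subunits of SIN3 histone deacetylase complexes, and the labels name no added ligand of these receptors.

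TGF-beta family ligands are secreted dimers that bring together type II and type I receptors. The type II receptor is a serine/threonine kinase that phosphorylates the type I receptor, and the type I receptor then phosphorylates SMAD proteins, which enter the nucleus with SMAD4 and regulate transcription. TGFBR1 and ACVR1B act on SMAD2 and SMAD3, and ACVR1, BMPR1A and BMPR1B act on SMAD1, SMAD5 and SMAD9.

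Library totals lay between 37962926 and 50946148 counts, and mitochondrial genes took 4.98% to 5.67% of them. Each siRNA lowered its own target. PHF12 stood at 50.3, 50.5 and 48.8 CPM (counts per 1000000, scaled between libraries by TMM) in controls and at 27.9, 24.5 and 28.3 CPM with its siRNA, which left 54.0% (log2 fold change -0.89, SE 0.06, edgeR adjusted p 1.88e-14). For its part, SUDS3 stood at 107.5, 114 and 112 CPM in controls and at 21.1, 22.3 and 22.9 CPM with its siRNA, which left 19.9% (log2 fold change -2.33, SE 0.05, edgeR adjusted p 1.82e-28). The PHF12 siRNA libraries also held less SUDS3 transcript, 72.9% of control, and the SUDS3 siRNA libraries held more PHF12 transcript, 123% of control. Markers of the line and its lineage were present: 8 of 9 embryonic kidney genes and 3 of 4 neuronal genes had at least 1 CPM in all 9 libraries. Of the markers of other cell types, PTPRC and CD3E of blood cells were at 0 in all libraries, all 3 endothelial and both hepatocyte markers were under 1 CPM in all, and COL1A1 and COL3A1 of fibroblasts were present while DCN was near 0.

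With the PHF12 siRNA, 6 of the 10 receptor transcripts fell, 1 rose and 3 did not pass the test. The falls were in TGFBR2, ACVR1, BMPR2, ACVR1B, BMPR1B and ACVR2B, and the rise was in TGFBR3, while TGFBR1, BMPR1A and ACVR2A did not pass. Among all 18088 genes tested, 31.9% passed in this comparison, 14.8% as higher and 17.1% as lower. The median log2 fold change of the 10 receptors was -0.27, against -0.0036 over all genes tested. All 10 receptors passed the filter on low counts, with 196 to 5932 counts per library. With another scaling, by the upper quartile, the calls of all genes went from 2680 higher and 3096 lower to 3381 higher and 2566 lower, and 6 receptors passed, without BMPR1B.

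With the SUDS3 siRNA the receptors formed a different picture, given here as a description because these libraries chose the set. TGFBR1, ACVR1B, ACVR2B and BMPR1B were lower than in controls, and TGFBR3 was higher; these are the 5 receptors past the threshold used for other genes, of which 38.7% passed in this comparison, 19.6% as higher and 19.2% as lower. Nothing is read from that count. Upper-quartile scaling took the calls of all genes in this comparison from 3537 higher and 3467 lower to 3064 higher and 3873 lower. The median log2 fold change of the 10 receptors was 0.056, against -0.018 over all genes. Both knockdowns were compared with the same 3 control libraries, so the fold changes of a gene in the 2 comparisons share those values. In bulk RNA, fewer cells that express a gene and less RNA per cell cannot be told apart.

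**Figure D1:**
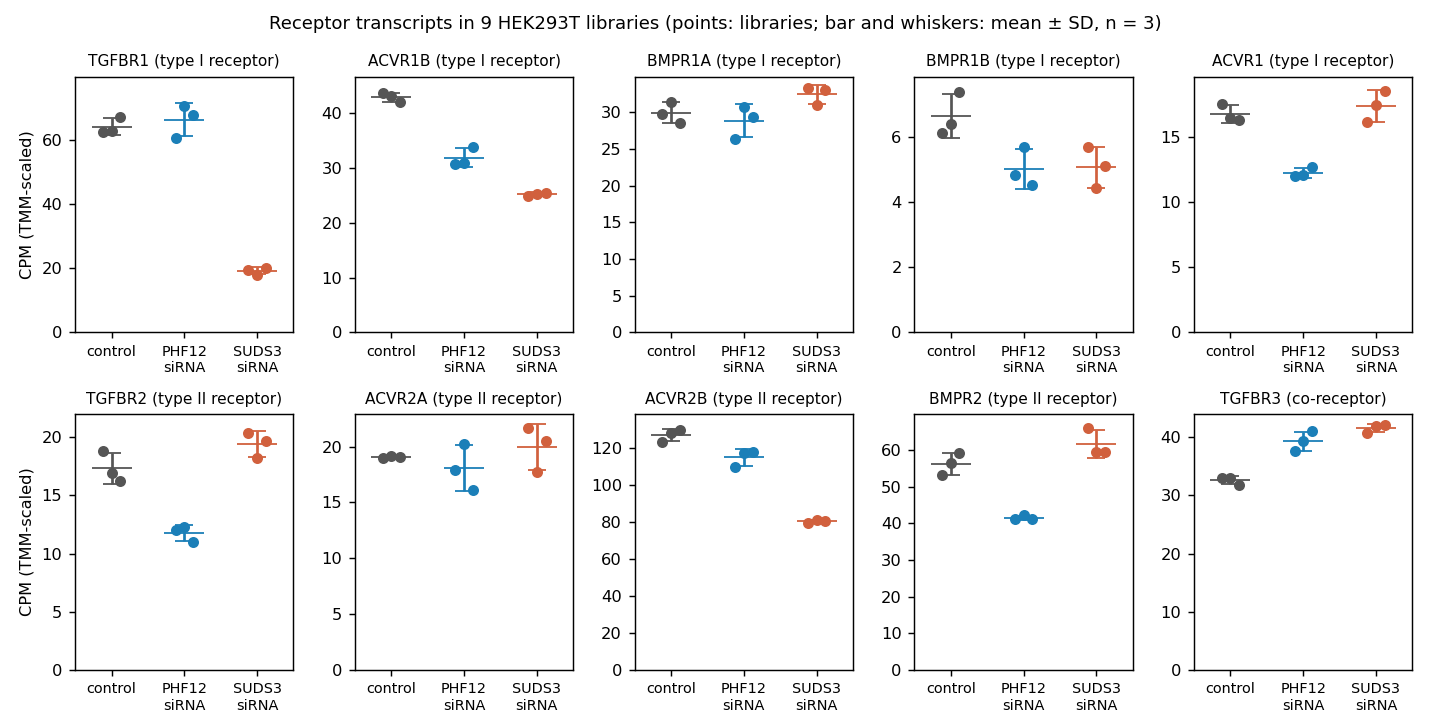
Level of each of the 10 receptor transcripts in CPM (y axis from 0, a scale of its own in each panel) in the control, PHF12 siRNA and SUDS3 siRNA libraries; points are libraries, the bar and whiskers are the mean and SD of 3. TGFBR1 lies between 17.9 and 20.1 CPM with the SUDS3 siRNA and between 60.6 and 70.8 CPM in the other 6 libraries, and TGFBR2, ACVR1 and BMPR2 are lowest with the PHF12 siRNA.

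An siRNA may also lower transcripts it was not designed for, where the 3' untranslated region (UTR) matches its seed, a short stretch near the start of the guide strand. The sources used here do not give the siRNA sequences, so the matches shown here come from the data. Each 6-base word held by at least 100 genes in their longest annotated 3' UTR was given a score. The score was the mean log2 fold change of genes with the word minus that of all genes, divided by its standard error. UTR length was accounted for first, and the 10 receptors were left out. Words were ranked from the lowest score, so the order depends on the number of genes with a word as well as on the shift. For the PHF12 siRNA the leading word was AATCAC, found in 4223 of 13649 genes, with a median log2 fold change of -0.12 in genes with it and 0.040 in genes without it. For the SUDS3 siRNA it was GTACAT, found in 4306 genes, with -0.075 and 0.030. These medians, unlike the ranking, are of fold changes not adjusted for UTR length. The words were picked from the same fold changes, only the transcript's own strand was searched, and whether these words have a part in the level of any receptor was not tested. Across all 3' UTRs, of median length 1385 bases, 31.0% hold AATCAC and 31.6% hold GTACAT, and 14.4% and 13.6% hold the 7-base words AATCACA and GTACATT that contain them.

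**Figure D2:**
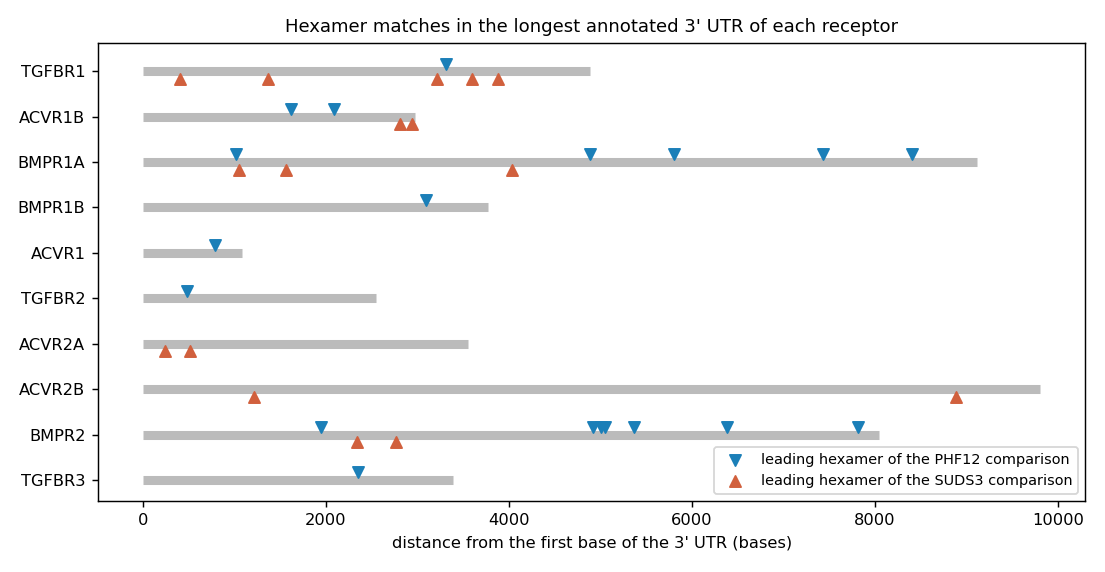
Position of the 2 words in the longest annotated 3' UTR of each receptor, in bases from the first base of the UTR; grey bars span the UTR, triangles pointing down mark the leading word of the PHF12 comparison and triangles pointing up that of the SUDS3 comparison. TGFBR1 has 5 matches to the SUDS3 word, the most among the 10, and BMPR2 has 7 matches to the PHF12 word.

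TGFBR1 (ENSG00000106799, GRCh38 chromosome 9, 99104038 to 99154192, plus strand) encodes the type I kinase of the TGF-beta receptor, also called ALK5. It stood at 62.6, 62.9 and 67.3 CPM in controls, at 60.6, 70.8 and 67.9 CPM with the PHF12 siRNA and at 19.6, 17.9 and 20.1 CPM with the SUDS3 siRNA. The 3 SUDS3 libraries were far below the other 6, while control and PHF12 libraries overlapped. The SUDS3 siRNA left 29.9% of the control level, a log2 fold change of -1.74 (SE 0.06). This was the 6th deepest fall among protein-coding genes that passed with an average of at least 2 CPM, next to NPTN (-1.85) and HDGFL3 (-1.84) above it and TBC1D5 and PTGES3 (both -1.73) below it. The PHF12 log2 fold change of TGFBR1 was 0.05 (SE 0.06, edgeR adjusted p 0.604).

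The 3' UTR of TGFBR1 spans 4887 bases and holds GTACAT 5 times, 4 of them within GTACATT, and AATCAC once. Of the 500 3' UTRs nearest to it in length, 65.0% hold GTACAT at least once. The 5 matches are shown with 8 bases on each side because this receptor differed most from control with the SUDS3 siRNA; they are GRCh38 plus strand, 5' to 3', from the GENCODE transcript, with the word in capitals.
TGFBR1 3' UTR, chr9:99149702-99149723: cctggttaGTACATtctcagag
TGFBR1 3' UTR, chr9:99150662-99150683: atgtgtgcGTACATtgcaactg
TGFBR1 3' UTR, chr9:99152516-99152537: attttgtaGTACATgcatgagt
TGFBR1 3' UTR, chr9:99152893-99152914: gattgtcaGTACATtaaacttt
TGFBR1 3' UTR, chr9:99153179-99153200: agaccaagGTACATttacctca

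ACVR1B (ENSG00000135503, chromosome 12, 51951667 to 51997078, plus strand) encodes ALK4, the type I receptor for activins. Its level was 43.6, 43.2 and 42.0 CPM in controls, 30.8, 30.9 and 33.9 CPM with the PHF12 siRNA and 25.0, 25.3 and 25.5 CPM with the SUDS3 siRNA. The 3 groups did not overlap, with controls highest and SUDS3 libraries lowest. ACVR1B fell with the PHF12 siRNA to 74.2% of control (log2 fold change -0.43, SE 0.06, edgeR adjusted p 1.43e-06). Its level in the SUDS3 libraries was 58.8% of control (log2 fold change -0.77, SE 0.07).

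ACVR1B was the receptor with the longer forms of both words in its 3' UTR, of 2968 bases, besides BMPR2. It holds AATCAC 2 times, once within AATCACA, and GTACAT 2 times, both within GTACATT. Of the 500 UTRs nearest in length, 46.0% hold AATCAC and 51.2% hold GTACAT. The 3 sites with the longer words are shown on the plus strand of GRCh38 with the 6-base word in capitals, because this transcript was lower in both knockdowns.
ACVR1B 3' UTR, AATCAC, chr12:51995718-51995739: catagctcAATCACactggaaa
ACVR1B 3' UTR, GTACAT, chr12:51996912-51996933: ttgtttttGTACATtttattag
ACVR1B 3' UTR, GTACAT, chr12:51997043-51997064: tttctgctGTACATtattaaaa

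ACVR1 (ENSG00000115170, chromosome 2, 157736444 to 157875862, minus strand) encodes ALK2, a type I receptor for BMPs. It had 17.5, 16.4 and 16.3 CPM in controls, 11.98, 12.1 and 12.7 CPM with the PHF12 siRNA and 16.1, 17.4 and 18.5 CPM with the SUDS3 siRNA. The PHF12 libraries lay below all other libraries, and the control and SUDS3 libraries overlapped. ACVR1 fell with the PHF12 siRNA to 73.1% of control (log2 fold change -0.45, SE 0.09, edgeR adjusted p 0.00019). The SUDS3 log2 fold change was 0.05 (SE 0.09). Its 3' UTR is the shortest of the 10, at 1087 bases, and holds AATCAC once, within AATCACA, and no GTACAT; 18.8% of the 500 UTRs nearest in length hold AATCAC.

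BMPR1A (ENSG00000107779, chromosome 10, 86756601 to 86932838, plus strand) encodes ALK3, a type I receptor for BMPs that is expressed in many tissues. Its level was 29.8, 31.4 and 28.5 CPM in controls, 26.4, 30.8 and 29.4 CPM with the PHF12 siRNA and 33.3, 30.9 and 33.0 CPM with the SUDS3 siRNA. Libraries of both knockdowns overlapped the controls. The PHF12 log2 fold change was -0.05 (SE 0.07, edgeR adjusted p 0.644), and the SUDS3 one was 0.11 (SE 0.07). Its 3' UTR of 9119 bases holds AATCAC 5 times, 2 of them within AATCACA, and GTACAT 3 times, none within GTACATT. Of the 500 UTRs nearest in length, 86.2% hold AATCAC and 82.4% hold GTACAT. Its processed pseudogenes BMPR1AP1 and BMPR1AP2 had a mean of 0.028 and 0.031 CPM.

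BMPR1B (ENSG00000138696, chromosome 4, 94757968 to 95158448, plus strand) encodes ALK6, the type I BMP receptor known for its role in limb cartilage, and was the least abundant of the 10. It had 6.12, 6.40 and 7.39 CPM in controls, 4.82, 5.69 and 4.54 CPM with the PHF12 siRNA and 5.69, 4.42 and 5.10 CPM with the SUDS3 siRNA. Neither knockdown group overlapped the controls. BMPR1B fell with the PHF12 siRNA (log2 fold change -0.40, SE 0.15, edgeR adjusted p 0.0448), and with the SUDS3 siRNA it was lower by a like amount (log2 fold change -0.39, SE 0.15). The PHF12 call did not hold without control replicate 2 (-0.43, edgeR adjusted p 0.0728), control replicate 3 (-0.31, 0.194), PHF12 siRNA replicate 1 (-0.37, 0.121) or PHF12 siRNA replicate 3 (-0.33, 0.164), nor with the replicate number as a block (-0.40, 0.0536). Its 3' UTR of 3775 bases holds AATCAC once, within AATCACA, and no GTACAT.

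TGFBR2 (ENSG00000163513, chromosome 3, 30606502 to 30694142, plus strand) encodes the type II receptor that binds TGF-beta and pairs with TGFBR1. It stood at 18.8, 16.95 and 16.3 CPM in controls, at 12.1, 12.3 and 11.02 CPM with the PHF12 siRNA and at 20.4, 18.2 and 19.7 CPM with the SUDS3 siRNA. The PHF12 libraries lay below the other 6, while control and SUDS3 libraries overlapped. TGFBR2 fell to 67.9% of control with the PHF12 siRNA, the deepest fall of the 10 in that comparison (log2 fold change -0.56, SE 0.09, edgeR adjusted p 9.99e-06). The SUDS3 log2 fold change was 0.16 (SE 0.09). Within the TGF-beta receptor pair, TGFBR1 was low in the SUDS3 libraries and TGFBR2 in the PHF12 libraries.

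The 3' UTR of TGFBR2, of 2543 bases, holds AATCAC once and no GTACAT, and 41.6% of the 500 UTRs nearest in length hold AATCAC. That site and those of ACVR1 and BMPR1B are shown because these 3 transcripts fell with the PHF12 siRNA and hold no match to the SUDS3 word. The choice thus follows the direction of change: TGFBR3 also holds AATCAC and no GTACAT, and it rose (log2 fold change 0.27). TGFBR2 and BMPR1B are read on the plus strand of GRCh38 and ACVR1 on the minus strand, 5' to 3', with the 6-base word in capitals.
TGFBR2 3' UTR, chr3:30692068-30692089: catttgacAATCACacatgcag
ACVR1 3' UTR, chr2:157736728-157736749: tcagttaaAATCACattttaag
BMPR1B 3' UTR, chr4:95157759-95157780: gattgttaAATCACaaaaagag

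BMPR2 (ENSG00000204217, chromosome 2, 202376936 to 202567751, plus strand) encodes the type II receptor for BMPs, whose loss-of-function mutations are known from heritable pulmonary arterial hypertension. Its level was 53.3, 56.5 and 59.2 CPM in controls, 41.3, 42.2 and 41.2 CPM with the PHF12 siRNA and 66.0, 59.5 and 59.5 CPM with the SUDS3 siRNA. The 3 groups did not overlap, with PHF12 libraries lowest. BMPR2 fell with the PHF12 siRNA to 73.8% of control (log2 fold change -0.44, SE 0.06, edgeR adjusted p 1.05e-07). Its SUDS3 level was 109% of control (log2 fold change 0.13, SE 0.06). Its 3' UTR of 8049 bases holds AATCAC 7 times, 2 of them within AATCACA, and GTACAT 2 times, once within GTACATT; 84.0% of UTRs of like length hold AATCAC.

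ACVR2B (ENSG00000114739, chromosome 3, 38453851 to 38493142, plus strand) encodes a type II receptor for activins and myostatin. It had 123.6, 128 and 130.1 CPM in controls, 109.6, 117 and 118 CPM with the PHF12 siRNA and 79.6, 80.8 and 80.5 CPM with the SUDS3 siRNA. The 3 groups did not overlap, and the SUDS3 libraries were lowest. ACVR2B fell with the PHF12 siRNA to 90.3% of control (log2 fold change -0.15, SE 0.04, edgeR adjusted p 0.00582), a call that did not hold without PHF12 siRNA replicate 1 (-0.11, edgeR adjusted p 0.0581). Its SUDS3 level was 63.1% of control (log2 fold change -0.66, SE 0.04). Its 3' UTR, the longest of the 10 at 9810 bases, holds GTACAT 2 times and no AATCAC, where 87.2% of UTRs of like length hold AATCAC.

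ACVR2A (ENSG00000121989, chromosome 2, 147844517 to 147930826, plus strand) encodes the other type II activin receptor. It had 19.0, 19.2 and 19.1 CPM in controls, 17.9, 20.2 and 16.1 CPM with the PHF12 siRNA and 21.7, 17.7 and 20.5 CPM with the SUDS3 siRNA. Both knockdown groups overlapped the controls. The PHF12 log2 fold change was -0.08 (SE 0.09, edgeR adjusted p 0.591), and the SUDS3 one was 0.06 (SE 0.09). Its 3' UTR of 3552 bases holds GTACAT 2 times, neither within GTACATT, and no AATCAC. ACVR2A overlaps ORC4, at a mean of 66.7 CPM, and ACVR2B overlaps ACVR2B-AS1, at 2.83 CPM, on the opposite strand; the sources used here do not give the strand setting of the counting, so reads of the partners cannot be told apart with certainty.

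TGFBR3 (ENSG00000069702, chromosome 1, 91680343 to 91906335, minus strand) encodes betaglycan, a co-receptor without a kinase that presents TGF-beta to TGFBR2 and binds inhibin. It had 33.1, 32.9 and 31.9 CPM in controls, 37.6, 39.3 and 41.0 CPM with the PHF12 siRNA and 40.8, 42.0 and 42.2 CPM with the SUDS3 siRNA. All 6 knockdown libraries were above the controls, and the 2 knockdown groups overlapped. TGFBR3 rose with the PHF12 siRNA (log2 fold change 0.27, SE 0.06, edgeR adjusted p 0.000737). Its SUDS3 level was 128% of control (log2 fold change 0.35, SE 0.06). Its 3' UTR of 3394 bases holds AATCAC once and no GTACAT.

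**Figure D3:**
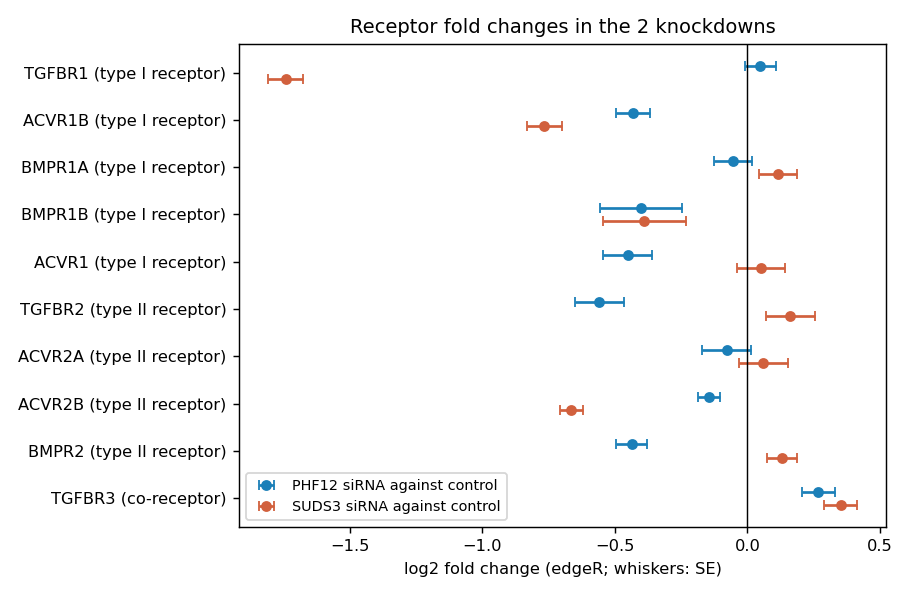
Log2 fold change against control from edgeR (x axis) of each receptor in the 2 knockdowns; whiskers are SE. TGFBR1 stands at -1.74 in the SUDS3 and 0.05 in the PHF12 comparison, while TGFBR2, ACVR1 and BMPR2 lie between -0.56 and -0.44 in the PHF12 and between 0.05 and 0.16 in the SUDS3 comparison.

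Set directly against each other, the SUDS3 and PHF12 libraries differed most in TGFBR1, with a log2 difference of -1.79 (SE 0.06, SUDS3 minus PHF12). ACVR2B (-0.52, SE 0.04) and ACVR1B (-0.34, SE 0.07) were also lower with the SUDS3 siRNA. TGFBR2 (0.72, SE 0.09), BMPR2 (0.57, SE 0.06) and ACVR1 (0.50, SE 0.09) were higher with it. These are descriptions, because the SUDS3 libraries chose the set. BMPR1A, ACVR2A, TGFBR3 and BMPR1B differed by 0.01 to 0.17 on the log2 scale. Across the 10 receptors the 3' UTRs hold 19 matches to AATCAC, 8 within AATCACA, and 16 to GTACAT, 8 within GTACATT. All these UTRs but that of ACVR1 are longer than the median of 1385 bases. Depending on the receptor, 18.8% to 87.2% of UTRs of like length hold AATCAC and 19.6% to 82.8% hold GTACAT. Nothing is read from these totals.

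The receptors also differed in level within the cells. Levels between genes are given as CPM per kilobase of the union of annotated exons. In controls TGFBR1 had the highest level, at 9.39 ± 0.38 CPM per kb (SD, n = 3), followed by ACVR2B at 8.08 ± 0.21 and ACVR1B at 7.54 ± 0.14, and each of these had all 3 libraries above the next. A middle group held BMPR2 at 4.73 ± 0.25, ACVR1 at 4.20 ± 0.18, TGFBR3 at 3.75 ± 0.076 and TGFBR2 at 3.69 ± 0.28 CPM per kb, of which TGFBR3 and TGFBR2 overlapped. ACVR2A at 2.82 ± 0.014, BMPR1A at 2.62 ± 0.13 and BMPR1B at 1.05 ± 0.11 CPM per kb were lowest. With the length of 1 transcript in place of the exon union, ACVR2B at 10.8 CPM per kb stood above TGFBR1 at 9.86.

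The order differed in the SUDS3 libraries: BMPR2 and ACVR2B, at 5.18 ± 0.32 and 5.10 ± 0.040 CPM per kb, overlapped as the highest. TGFBR1 was 9th of 10 at 2.81 ± 0.17 and overlapped BMPR1A and ACVR2A, at 2.84 ± 0.11 and 2.95 ± 0.30. In the PHF12 libraries TGFBR1, ACVR2B and ACVR1B stayed the 3 highest, at 9.71 ± 0.76, 7.30 ± 0.29 and 5.6 ± 0.31 CPM per kb. TGFBR2 went from 7th to 9th, at 2.504 ± 0.14, and overlapped BMPR1A and ACVR2A.

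The 5 type I receptors summed to 24.8, 24.7 and 25.0 CPM per kb in controls, to 20.4, 22.4 and 22.4 with the PHF12 siRNA and to 15.1, 14.8 and 15.8 with the SUDS3 siRNA. TGFBR1 made up 37.9% ± 1.3 of that sum in controls, 44.7% ± 1.4 in PHF12 libraries and 18.4% ± 0.67 in SUDS3 libraries (SD, n = 3). Neither knockdown overlapped the controls in the sum or the share. The 4 type II receptors summed to 19.3 ± 0.19 CPM per kb in controls, 16.0 ± 0.54 in PHF12 libraries and 17.4 ± 0.76 in SUDS3 libraries. These sums are a description, since the type I sum holds TGFBR1, whose SUDS3 level chose the set. Without TGFBR1, a sum added after the values were seen, the type I receptors came to 15.4 ± 0.26 CPM per kb in controls, 11.99 ± 0.47 in PHF12 libraries and 12.4 ± 0.34 in SUDS3 libraries, where both knockdowns lay below the controls and overlapped each other. In the SUDS3 libraries ACVR1B was at 4.44 CPM per kb against 7.54 in controls, and BMPR1B at 0.80 against 1.05. ACVR1 (4.35 against 4.20) and BMPR1A (2.84 against 2.62) were not lower there.

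**Figure D4:**
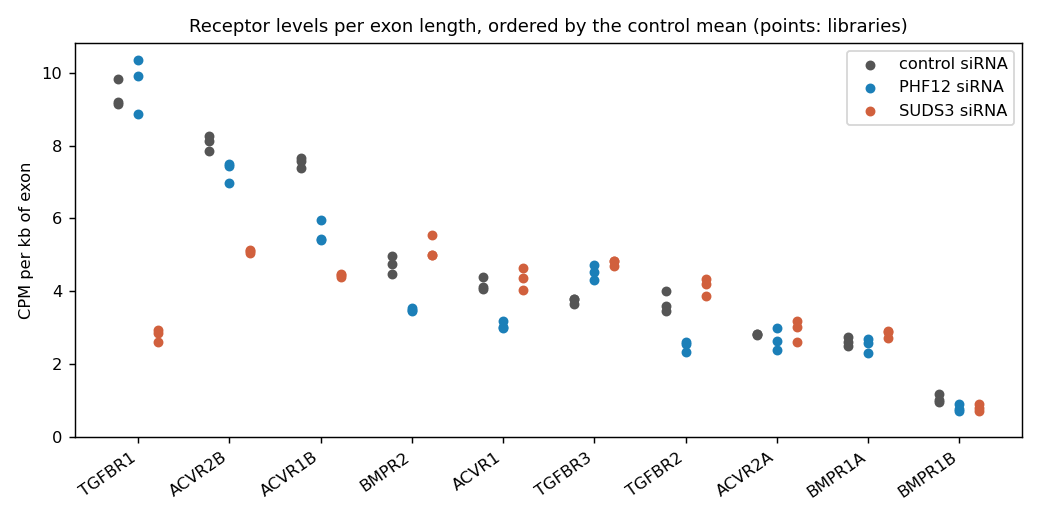
Level of each receptor in CPM per kb of exon (y axis from 0), ordered by the control mean; points are libraries of the control, PHF12 siRNA and SUDS3 siRNA groups. TGFBR1 is the highest in controls at a mean of 9.39 and is at 2.81 with the SUDS3 siRNA, while BMPR1B is the lowest in all 3 groups.

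The genes whose profile over the 9 libraries was most like that of TGFBR1, by Pearson correlation of log2 CPM among 13867 protein-coding genes tested, were ATF1 (0.999), PTGES3 (0.998), TMEM33 (0.998), NDFIP2 (0.997) and ATP13A3 (0.997). The libraries share groups, so these values mainly rank genes by their group means and carry no test. PTGES3, a co-chaperone of HSP90, had 836, 854 and 916 CPM in controls, 901, 933 and 887 CPM with the PHF12 siRNA and 268, 248 and 271 CPM with the SUDS3 siRNA. ATF1, a transcription factor of the CREB family, had 34.3, 36.8 and 38.5 CPM in controls and 13.0, 12.3 and 13.4 CPM with the SUDS3 siRNA. These 5 genes had SUDS3 log2 fold changes between -1.73 and -0.93 and PHF12 log2 fold changes between -0.041 and 0.068.

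Beyond the receptors, 128 other genes of the pathway were listed by role, and 105 passed the filter on low counts. The PHF12 siRNA gave 19 rises and 22 falls, with a median log2 fold change of 0.0017; DESeq2 gave 25 and 25 and upper-quartile scaling 26 and 19, so the balance of directions turned with the scaling. The SUDS3 siRNA gave 19 rises and 31 falls, with a median of -0.11, and upper-quartile scaling gave 14 and 32. Both shares are to be read beside the 31.9% and 38.7% of all genes that passed. None of these genes was itself named by the rule that chose the receptors, and they are tested in both comparisons, but the lists were drawn up with the fall of TGFBR1 known.

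Of the 22 ligands tested, 2 rose and 2 fell with the PHF12 siRNA, none by 0.5 or more on the log2 scale. The SUDS3 comparison had 3 rises and 4 falls. TGFB1, the ligand of TGFBR2 and TGFBR1, had 30.6, 27.2 and 32.1 CPM in controls and 19.7, 21.9 and 20.8 CPM in the SUDS3 libraries, without overlap (log2 fold change -0.52, SE 0.08, edgeR adjusted p 1.81e-06). INHBA, the activin A subunit, went down from 10.8 to 7.30 CPM (log2 fold change -0.57, SE 0.13), and BMP2 fell from 11.2 to 6.35 CPM (-0.83, SE 0.13). GDF11, a ligand of the activin type II receptors, rose from 32.3 to 47.6 CPM (0.56, SE 0.06). With the PHF12 siRNA TGFB1 also fell (-0.25, SE 0.08) and GDF11 also rose (0.18, SE 0.06), while INHBA and BMP2 did not pass. The 3 rises in the SUDS3 comparison became 1 without control replicate 2, control replicate 3 or SUDS3 siRNA replicate 1. In the PHF12 comparison the 2 rises became 1 without control replicate 1 or 3 or any 1 of the PHF12 siRNA replicates, and the 2 falls became 1 without control replicate 1 or 3 or PHF12 siRNA replicate 2.

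Of the 7 other receptors and co-receptors tested, 3 rose and 1 fell with the PHF12 siRNA, and 1 rose and 2 fell with the SUDS3 siRNA. ACVR1C, the type I receptor ALK7, fell with both, from 3.38 CPM in controls to 2.19 CPM in PHF12 siRNA libraries (log2 fold change -0.62, SE 0.22, edgeR adjusted p 0.0238) and to 2.32 CPM with the SUDS3 siRNA (-0.54, SE 0.22, edgeR adjusted p 0.0440). The PHF12 call of ACVR1C did not hold without control replicate 1 or 3 or PHF12 siRNA replicate 1 or 3, where edgeR adjusted p was 0.0546 to 0.0728 and the fall count of the list 0. Its SUDS3 call did not hold without any 1 control or without SUDS3 siRNA replicate 1 or 3, where edgeR adjusted p was 0.0606 to 0.172. ACVRL1, the endothelial type I receptor ALK1, rose from 0.22 to 0.88 CPM with the PHF12 siRNA (1.99, SE 0.69, edgeR adjusted p 0.0237), on 4 to 44 counts per library. That call did not hold without control replicate 2 (1.59, edgeR adjusted p 0.122), control replicate 3 (1.96, 0.0631), PHF12 siRNA replicate 1 (1.96, 0.0817) or PHF12 siRNA replicate 3 (1.87, 0.0978). ACVRL1 held 36 to 44 counts in the PHF12 siRNA libraries and 4 to 16 in the others. It thus passed the filter on low counts only through the group where it was high. Not every alternative could test it: it had a fold change in 16 of them. With a minimum count of 40, or with counts divided by 4, the 3 rises of the list became 2. AMHR2, the type II receptor for anti-Müllerian hormone, fell from 1.68 to 0.74 CPM with the SUDS3 siRNA (-1.17, SE 0.32, edgeR adjusted p 0.00295), and the fall count there became 1 without control replicate 1 or 3 or SUDS3 siRNA replicate 1 or 3.

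Of the 17 extracellular inhibitors and latency proteins tested, 3 rose and 2 fell with the PHF12 siRNA, and 1 rose and 7 fell with the SUDS3 siRNA. In the SUDS3 comparison BMPER, which binds BMPs, dropped from 4.95 to 2.86 CPM (log2 fold change -0.80, SE 0.19, edgeR adjusted p 0.000949). NRROS, which holds latent TGF-beta at the cell surface, fell from 1.61 to 0.45 CPM (-1.83, SE 0.41, edgeR adjusted p 0.000455). NOG, the BMP antagonist noggin, fell from 4.45 to 2.96 CPM (-0.58, SE 0.20, edgeR adjusted p 0.0217), a call that did not hold without control replicate 2 (-0.47), SUDS3 siRNA replicate 1 (-0.41) or SUDS3 siRNA replicate 3 (-0.56). LTBP2, a latent TGF-beta binding protein family member, fell from 2.15 to 1.254 CPM with overlapping libraries (-0.78, SE 0.29, edgeR adjusted p 0.0336), a call that did not hold without control replicate 1 (-0.77) or 2 (-0.59) or SUDS3 siRNA replicate 1 (-0.60) or 3 (-0.74). The 7 falls became 2 without control replicate 2 or SUDS3 siRNA replicate 3 and 4 without control replicate 1 or SUDS3 siRNA replicate 2, and the 1 rise became 0 without control replicate 3 and 2 without SUDS3 siRNA replicate 2. In the PHF12 comparison SOSTDC1, a BMP antagonist, fell from 0.99 to 0.42 CPM (-1.23, SE 0.39, edgeR adjusted p 0.0144), a call that did not hold without control replicate 2 (-1.06, edgeR adjusted p 0.0738). There the 2 falls became 4 by DESeq2 and 1 without control replicate 2 or PHF12 siRNA replicate 1, and the 3 rises became 1 without control replicate 3 or PHF12 siRNA replicate 2.

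Among the 8 SMADs, 4 fell with the SUDS3 siRNA, and 0 rose by edgeR or by DESeq2. SMAD5, which acts downstream of the BMP type I receptors, had 112, 114 and 122 CPM in controls and 89.4, 89.5 and 92.3 CPM in the SUDS3 libraries (log2 fold change -0.36, SE 0.04, edgeR adjusted p 2.35e-08). SMAD9, which acts there too, fell from 26.3 to 18.1 CPM (-0.54, SE 0.08, edgeR adjusted p 2.59e-06), and the inhibitory SMAD6 fell from 18.2 to 14.4 CPM (-0.34, SE 0.09, edgeR adjusted p 0.00268). SMAD2, a substrate of TGFBR1 and ACVR1B, fell from 51.1 to 45.3 CPM (-0.17, SE 0.06, edgeR adjusted p 0.0205), a call that did not hold without control replicate 2 (-0.12) or 3 (-0.16) or SUDS3 siRNA replicate 1 (-0.17) or 2 (-0.17). SMAD1 (-0.07), SMAD3 (0.15), SMAD4 (-0.11) and SMAD7 (-0.19) did not pass; at an unadjusted p under 0.05 there was 1 rise, SMAD3, and without control replicate 1 also 1.

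With the PHF12 siRNA SMAD6 (log2 fold change -0.23, SE 0.09, edgeR adjusted p 0.0474) and SMAD9 (-0.21, SE 0.08, edgeR adjusted p 0.0475) fell, both near the threshold. Without any 1 control or PHF12 siRNA replicate neither passed, and without any 1 SUDS3 siRNA replicate 1 of them did, with log2 fold changes between -0.26 and -0.20 for SMAD6 and between -0.24 and -0.16 for SMAD9. SMAD1 (-0.07), SMAD2 (0.09), SMAD3 (0.02), SMAD4 (0.14), SMAD5 (-0.04) and SMAD7 (-0.13) did not pass. By edgeR 0 SMADs rose, with 1 at an unadjusted p under 0.05, SMAD4 (edgeR adjusted p 0.0678). SMAD4 passed in 6 of 18 alternatives: by DESeq2 (adjusted p 0.0284), and by edgeR with upper-quartile scaling (0.0168), a minimum count of 40 (0.0439), counts divided by 4 (0.0388), a replicate block (0.0447) and without PHF12 siRNA replicate 1 (0.0128).

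**Figure D5:**
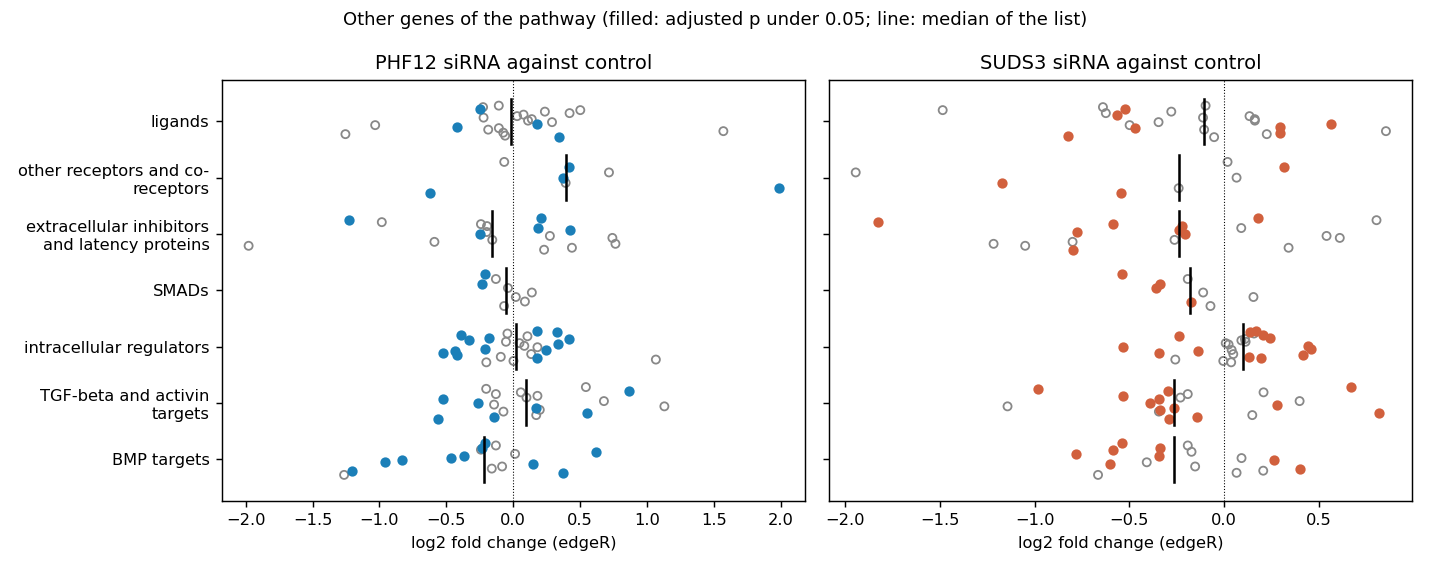
Log2 fold change against control from edgeR (x axis) of the tested genes of 7 pathway lists in the PHF12 (left) and SUDS3 (right) comparison; each point is a gene, filled where the adjusted p was under 0.05, and the line is the median of the list. Of the 16 BMP targets 7 fell and 3 rose with the PHF12 siRNA, and of the 19 TGF-beta and activin targets 9 fell and 3 rose with the SUDS3 siRNA.

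Among 24 intracellular regulators, 6 rose and 7 fell with the PHF12 siRNA, with a median log2 fold change of 0.024, and 9 rose and 4 fell with the SUDS3 siRNA, with a median of 0.10. PMEPA1, an inhibitor and a target of TGF-beta signalling, had 11.9, 10.7 and 12.6 CPM in controls and 7.74, 8.38 and 8.24 CPM in the PHF12 libraries (log2 fold change -0.53, SE 0.12, edgeR adjusted p 0.000478). SKIL, a SMAD corepressor, had 42.9, 38.4 and 43.3 CPM in controls and 31.0, 29.5 and 25.3 CPM with the SUDS3 siRNA (-0.54, SE 0.08, edgeR adjusted p 1.02e-06). Neither gene's knockdown libraries overlapped the controls in these comparisons. PMEPA1 also fell with the SUDS3 siRNA (-0.35, SE 0.12), and SKIL did not pass with the PHF12 siRNA (0.18, SE 0.08). Chosen after their values were seen, SKI, another corepressor, and NEDD4L, a ubiquitin ligase that acts on SMADs and receptors, fell with the PHF12 siRNA (-0.21 and -0.42) and rose with the SUDS3 siRNA (0.46 and 0.42). The 4 falls with the SUDS3 siRNA became 2 without control replicate 3 or SUDS3 siRNA replicate 3.

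Among the TGF-beta and activin targets, 19 were tested. In the PHF12 comparison 3 rose and 4 fell, with a median log2 fold change of 0.099; DESeq2 gave 6 rises, and so did upper-quartile scaling. SNAI2, a repressor of epithelial genes, had 45.2, 38.1 and 44.9 CPM in controls and 74.7, 80.7 and 77.7 CPM with the PHF12 siRNA (0.86, SE 0.06, edgeR adjusted p 2.47e-14). COL1A1, a collagen chain, rose from 11.7 to 17.2 CPM (0.55, SE 0.09) and BHLHE40, a transcription factor, fell from 62.6 to 42.4 CPM (-0.56, SE 0.06). With the SUDS3 siRNA BHLHE40 also fell (-0.29, SE 0.06), and SNAI2 fell as well (-0.30, SE 0.06).

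The SUDS3 siRNA gave 3 rises and 9 falls among these targets, with a median of -0.26. SPHK1, a sphingosine kinase, had 7.31, 7.44 and 7.39 CPM in controls and 4.04, 3.84 and 3.33 CPM in the SUDS3 libraries (log2 fold change -0.98, SE 0.15, edgeR adjusted p 1.30e-06). COL1A1 rose from 11.7 to 20.7 CPM (0.82, SE 0.09, edgeR adjusted p 5.17e-09). TAGLN, a smooth muscle actin-binding protein, rose from 2.23 to 3.53 CPM (0.67, SE 0.22, edgeR adjusted p 0.0134), a call that did not hold without control replicate 2 (0.49, edgeR adjusted p 0.109), where the 3 rises became 1. The other falls included SKIL, above.

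All 16 BMP targets were tested. With the PHF12 siRNA 7 fell and 3 rose, with a median log2 fold change of -0.22. The falls include SMAD6 and SMAD9, given above as near the threshold. Upper-quartile scaling gave 5 falls and DESeq2 8, each with 3 rises. ID2, an inhibitor of basic helix-loop-helix factors, had 159, 155 and 150.1 CPM in controls, 81.4, 84.6 and 94.5 CPM with the PHF12 siRNA and 186, 181 and 190 CPM with the SUDS3 siRNA. The 3 groups did not overlap, with PHF12 libraries lowest and SUDS3 libraries highest (edgeR adjusted p 9.26e-18 for the PHF12 log2 fold change of -0.83, SE 0.04, and 5.24e-06 for the SUDS3 one of 0.26, SE 0.04). ID1 fell with the PHF12 siRNA from 6.85 to 3.53 CPM (-0.96, SE 0.17, edgeR adjusted p 3.42e-05), and, named after their values were seen, ID3 (-0.47, SE 0.06) and ID4 (-0.37, SE 0.05) fell too. With the SUDS3 siRNA ID4 fell by a like amount (-0.35, SE 0.05), while ID1 (-0.41, SE 0.17) and ID3 (0.09, SE 0.06) did not pass. The homeobox gene DLX5 fell from 4.74 to 2.06 CPM (-1.21, SE 0.21), and MSX2, another homeobox gene, rose from 18.2 to 28.02 CPM (0.62, SE 0.08).

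Of the 16 BMP targets, 6 fell and 2 rose with the SUDS3 siRNA, with a median of -0.27. HEY1, a Notch and BMP target, had 263, 256 and 264 CPM in controls and 172, 167 and 176 CPM in the SUDS3 libraries (log2 fold change -0.61, SE 0.03, edgeR adjusted p 2.80e-17). With the PHF12 siRNA HEY1 rose (0.15, SE 0.03). MSX1, a homeobox gene, had 36.0, 34.8 and 36.1 CPM in controls, 36.1, 36.2 and 35.6 CPM with the PHF12 siRNA and 22.4, 20.2 and 19.5 CPM with the SUDS3 siRNA (-0.78, SE 0.07, edgeR adjusted p 2.10e-11). For MSX1 the SUDS3 libraries stood below the other 6. The same held for HEY1 and, of the genes above, for SMAD5, SPHK1, SKIL, TGFB1, BMP2 and INHBA among others. NOG, SMAD6 and SMAD9, given above, were among the 6 falls.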

How the data were processed

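Per the submitters' processing notes, the authors used Trimmomatic 0.36, HISAT2 2.1.0 and HTSeq with build GRCh38. They deposited a count table of 58735 genes, all matched to GENCODE 29, and a TPM table. Of the deposited counts above 0, 96.1% are multiples of 4, so a repeat used counts divided by 4. The deposited TPM values imply 1 fixed length per gene that does not follow its exon length (Spearman rho 0.008 over 9425 genes), for a reason that was not tested, so TPM served only for alternatives within a gene, on log2(TPM + 1) and log2(TPM + 0.1).

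All 9 libraries entered 1 model of the counts in edgeR 4.0.16 (R 4.3.3): filterByExpr with a minimum count of 10 (18088 genes), TMM, robust quasi-likelihood F-tests, and Benjamini-Hochberg adjustment over all genes tested, with a threshold of 0.05. The fit was tested on simulated data. DESeq2 1.42.0, limma 3.58.1, other filters and scalings, a replicate block and each library left out were alternatives. The labels leave unsaid whether replicates came from separate cultures, so a p measures only the spread between these libraries, whose differences exceeded counting noise (chi-square per degree of freedom 1.35 to 2.11 after division by 4).

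The receptors and the pathway lists were chosen with earlier results of these data known. Named genes are all receptors and SMADs, the siRNA targets, other pathway genes that passed with a log2 fold change of at least 0.5 either way, and the 5 genes most correlated with TGFBR1; SKI, NEDD4L, ID3, ID4 and the genes next to TGFBR1 in rank fall outside this rule and were chosen after their values were seen. Sequences are from GENCODE 29 transcripts (GRCh38), 1-based.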

Additional observations from a re-analysis of the deposited data

How the results depend on the processing

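The counts of genes that passed stayed within 1.5 times under every alternative run: 4918 to 6571 for the PHF12 siRNA against 5776, and 6100 to 7706 for the SUDS3 siRNA against 7004. Of 180 repeats of the receptors' PHF12 fold changes, 170 kept direction and call, 8 lost the call (BMPR1B 7 times, among them with upper-quartile scaling, adjusted p 0.0718, and with no low-count filter, 0.0737; ACVR2B once) and 2 changed sign, TGFBR1 and BMPR1A, which had not passed. With 1 library left out, log2 fold changes with the PHF12 siRNA ranged from -0.0007 to 0.11 for TGFBR1, from -0.10 to 0.0071 for BMPR1A, from -0.15 to 0.027 for SMAD1 and from -0.056 to 0.075 for SMAD3. In the PHF12 comparison SMAD6 and SMAD9 also lost their calls with upper-quartile scaling (adjusted p 0.105 and 0.112) and with no filter (0.0907 and 0.0632), ACVR1C with no filter in both comparisons (0.0514 and 0.0935), SOSTDC1 on log2(TPM + 1) (0.0505) and SMAD2 in the SUDS3 comparison on log2(TPM + 1) (0.076). On log2(TPM + 1) the 2 ligand falls in the PHF12 comparison became 0, and in the SUDS3 comparison the 3 ligand rises became 1 and the 7 inhibitor falls 2. The cause was not tested. Of 180 repeats of the SUDS3 fold changes, 1 moved by more than the spread between replicates, ACVR1B on log2(TPM + 1), at -0.72 against -0.77.

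Deviations from the group means correlated at -0.0158 to 0.0304 for libraries of the same replicate number and at -0.0325 to 0.0179 for different numbers. Library totals, though, were largest for replicate 2 and smallest for replicate 3 in all 3 groups. Whether replicate numbers pair the libraries is thus not known. With a replicate block 5848 genes passed in the PHF12 comparison and 7073 in the SUDS3 comparison, and 6 receptors in the former, without BMPR1B. ACVRL1 and SOSTDC1 rest on few counts, and between-gene levels depend on the exon length used.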
